A study of Mus musculus with 36 samples.

Results

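Cerk, the ceramide kinase gene, was described together with other enzymes of ceramide and sphingolipid metabolism in B3 cells, a mouse pre-B cell line, by mRNA-seq. The set was given as 10 enzyme genes by symbol, and 8 of them had a row among the 12762 genes of the deposited table: Cerk, Sphk2, Cers2, Cers5, Sptlc1, Sptlc2, Asah1 and Ugcg. Sphk1 and Cers6 were not analysed here. Cerk was chosen on the readout itself, because it was among the genes with the largest rises in Ikaros cells at 24 h, so its difference between the lines is given as a description with no test. The other 7 genes were listed for their place in the pathway, by a choice made with results of these data known.

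The table held 36 libraries in 12 groups of 3. Ikaros cells were B3 cells transduced with an MSCV retroviral vector for HA-tagged wild type Ikaros fused to the ERt2 hormone-binding domain, followed by IRES-GFP. Control cells were B3 cells that carried the same kind of vector with ERt2 but without Ikaros, and both lines were given 4-hydroxy-tamoxifen (4-OHT) at 0.5 uM, which moves an ERt2 fusion protein into the nucleus. Libraries were made at 0, 2, 6, 12, 18 and 24 h, from culture batches 1, 2 and 4 at 0 h and from batches 1, 3 and 4 at the later times. The labels list 4-OHT for the 0 h samples as well, whereas the study's methods state that these had no 4-OHT and were collected separately. Each line is a transduced cell line, so the replicates are cultures of that line and not animals, and the Ikaros of the construct comes on top of the cells' own. In bulk RNA, a change in the number of cells of some state and a change in RNA per cell cannot be told apart; the methods report that Ikaros cells arrest in G1 after induction.

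Sphingolipids are built on a sphingoid base that serine palmitoyltransferase makes from serine and palmitoyl-CoA. Ceramide synthases add a fatty acid to that base, which gives ceramide, the hub of the pathway. Ceramide can be phosphorylated to ceramide 1-phosphate by ceramide kinase, turned into sphingomyelin, given a glucose to start the glycosphingolipids, or cleaved by ceramidases to sphingosine, which sphingosine kinases phosphorylate to sphingosine 1-phosphate. Ceramide and sphingosine are known mainly as signals of growth arrest and cell death, and sphingosine 1-phosphate as a signal that guides lymphocytes out of tissues.

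The library medians lay between 11.70 and 11.73 on the deposited log2 scale. Ikzf1, the gene that encodes Ikaros, separated the lines in all 36 libraries, with means of 14.70 and 19.89 in control and Ikaros cells at 0 h and of 14.61 and 20.71 at 24 h, so no library went against its label. All 13 listed pre-B cell markers had a row, and their mean per library lay between 13.3 and 14.7. None of the 6 T cell and 6 fibroblast markers had a row. The myeloid and erythroid lists had 2 of 6 and 3 of 6 markers with a row, at percentiles from 3.00 to 14.6; the mean of the 2 myeloid markers ranged from 4.83 to 6.79 in control libraries and from 6.14 to 7.91 in Ikaros libraries, and the pair differed in direction at 24 h (Itgam 4.24, Lyz2 -2.94); their part in the results was not tested.

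Promoter windows from RefSeq (GRCm38.p6, 250 bases before to 50 after a transcript start) existed for 7 of the 8 genes, in 9 windows; Asah1 had none. They were searched on both strands for GGGAA, the core of the Ikaros recognition motif, which reads TTCCC when it lies on the other strand. Of all 32851 windows of this length, 62.7% held it. Matches were found for 3 of the 7 genes, Sphk2 (in each of its windows), Sptlc2 and Cers5. This counts genes with a match in any window, whereas the share above counts windows. The windows of 3 genes are shown 5′ to 3′ on the gene's strand, with matches in capitals: Cerk, with the largest difference of the set, at chr15:86186092-86186391 on the reverse strand, Ugcg, with the next largest, at chr4:59189300-59189599 on the forward strand, and Sphk2, whose difference was called at no time, at chr7:45717953-45718252 on the reverse strand.
Cerk: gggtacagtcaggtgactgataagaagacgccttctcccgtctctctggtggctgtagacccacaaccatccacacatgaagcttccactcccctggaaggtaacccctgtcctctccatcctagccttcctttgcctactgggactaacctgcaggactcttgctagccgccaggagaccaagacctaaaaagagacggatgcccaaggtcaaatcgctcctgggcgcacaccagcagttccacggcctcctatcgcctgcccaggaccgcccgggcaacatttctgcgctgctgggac
Ugcg: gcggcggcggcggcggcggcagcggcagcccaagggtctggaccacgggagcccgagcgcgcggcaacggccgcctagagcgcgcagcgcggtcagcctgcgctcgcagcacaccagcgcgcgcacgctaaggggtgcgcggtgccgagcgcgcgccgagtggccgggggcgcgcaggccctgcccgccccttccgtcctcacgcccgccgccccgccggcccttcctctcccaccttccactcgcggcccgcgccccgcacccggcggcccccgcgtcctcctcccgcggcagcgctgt
Sphk2: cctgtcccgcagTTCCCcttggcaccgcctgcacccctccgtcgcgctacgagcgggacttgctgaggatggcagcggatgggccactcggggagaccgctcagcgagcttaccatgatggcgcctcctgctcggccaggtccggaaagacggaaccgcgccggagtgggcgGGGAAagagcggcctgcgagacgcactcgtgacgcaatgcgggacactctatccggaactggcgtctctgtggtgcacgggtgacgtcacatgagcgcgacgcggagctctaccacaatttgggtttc
The Cerk and Ugcg windows held no match, and the Sphk2 window shown held 2, which began at positions -238 and -78 from the start. A further Sphk2 window, at chr7:45715158-45715457, held 1, at position -23. A missing match says only that these letters are not in this window, and a match is not evidence of binding.

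Cerk was the gene of the set that differed most between the lines. It lies on chromosome 15 (GRCm38, 86139128 to 86186141, reverse strand), and its only overlapping annotated genes, Gm15569 (antisense) and Gm24011, had no row. Ceramide kinase is the enzyme that phosphorylates ceramide to ceramide 1-phosphate. In the 18 control libraries Cerk stayed between 11.05 and 11.74, with a median of 11.52, and the control group means ran from 11.32 to 11.67.

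At 0 h the 3 Ikaros libraries read 11.76, 11.60 and 11.60 and the 3 control libraries 11.74, 11.52 and 11.73, which overlapped. At 2 h the Ikaros libraries read 12.35, 12.24 and 12.14 against 11.68, 11.52 and 11.44 in control cells. The groups were apart from this time on, and at every later time the lowest Ikaros library was above the highest control library. At 6 h the values were 13.38, 13.03 and 13.00 against 11.55, 11.54 and 11.38, and at 12 h they were 15.01, 14.77 and 14.92 against 11.72, 11.24 and 11.12. At 18 h the Ikaros libraries read 16.26, 16.15 and 16.31 and the control libraries 11.64, 11.27 and 11.05. At 24 h they read 16.68, 16.47 and 16.59 against 11.55, 11.36 and 11.33. At each time the lowest of the 3 Ikaros libraries was above the highest of the time before.

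The Cerk difference, Ikaros minus control on the log2 scale, stood at -0.01 for the 0 h cultures and then at 0.70 by 2 h, 1.65 by 6 h, 3.54 by 12 h, 4.92 by 18 h and 5.17 by 24 h, each with an SE of 0.14 (n = 3 per group). As folds the last 5 of these came to 1.62, 3.13, 11.7, 30.3 and 35.99. The difference at 24 h, the value that chose the gene, ranked 37 among the rises of the 12501 genes with a symbol. Within single culture batches the difference lay between 5.11 and 5.27 at 24 h and between 0.67 and 0.72 at 2 h.

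The rise in Ikaros cells was uneven in time. Between neighbouring times the mean moved by 0.59 from 0 to 2 h, 0.89 from 2 to 6 h, 1.76 from 6 to 12 h, 1.34 from 12 to 18 h and 0.34 from 18 to 24 h. Per hour these steps came to 0.30, 0.22, 0.29, 0.22 and 0.06 log2 units, so the last interval had the slowest rise. The 0 h cultures were not part of the later time course, so the step from 0 to 2 h also spans different cultures.

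**Figure D1:**
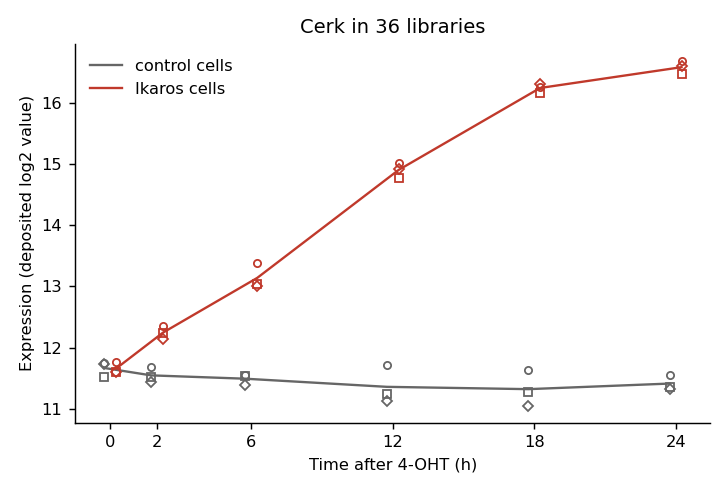
Cerk on the deposited log2 scale (y) against hours after 4-OHT (x) in the 36 libraries, with open symbols for libraries (circle, square and diamond for replicates 1, 2 and 3) and lines through the group means of 3. The control line stayed near 11.5, whereas the Ikaros line left it at 2 h and reached 16.58 at 24 h.

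Against this, the other 7 enzymes moved little. Their differences at 24 h ran from -0.46 for Cers2 to 0.68 for Ugcg. The number called at an adjusted p under 0.05 by limma was 0 of 7 at 0 h, where 8.33% of all genes were called, 1 of 7 at 2 h (19.1% of all genes), 1 of 7 at 6 h (37.3%), 1 of 7 at 12 h (45.8%), 2 of 7 at 18 h (58.2%) and 3 of 7 at 24 h (62.9%). By direction, 2 of 7 were higher at 24 h, where 31% of all genes were higher, and 1 of 7 was lower, where 31.9% were lower. At 18 h 2 of 7 were higher and 0 of 7 lower, against 29% and 29.2% of all genes. At 12 h 1 of 7 was higher and 0 lower (23% and 22.8% of all genes), at 6 h 1 of 7 higher and 0 lower (18.1% and 19.2%), at 2 h 1 of 7 higher and 0 lower (9.18% and 9.88%), and at 0 h 0 in either direction (4.61% and 3.72%). The median difference of the 7 lay between 0.00 and 0.19 over the 6 times, and that of all genes between -0.03 and 0.00. With culture batch as a block, 5 of 7 were called at 18 h, the additions being Sphk2, Cers2 and Sptlc2. In that fit 7998 of the 12762 genes were called at 18 h, against 7423 with no block. Without replicate 1 the count at 24 h was 1 of 7 (6576 of all genes called) and without replicate 2 it was 0 of 7 (6248). Without replicate 3 the counts at 6 and 18 h were 2 and 4 of 7 (4971 and 7482 of all genes). The call at 2 h was lost whichever replicate was left out.

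**Figure D2:**
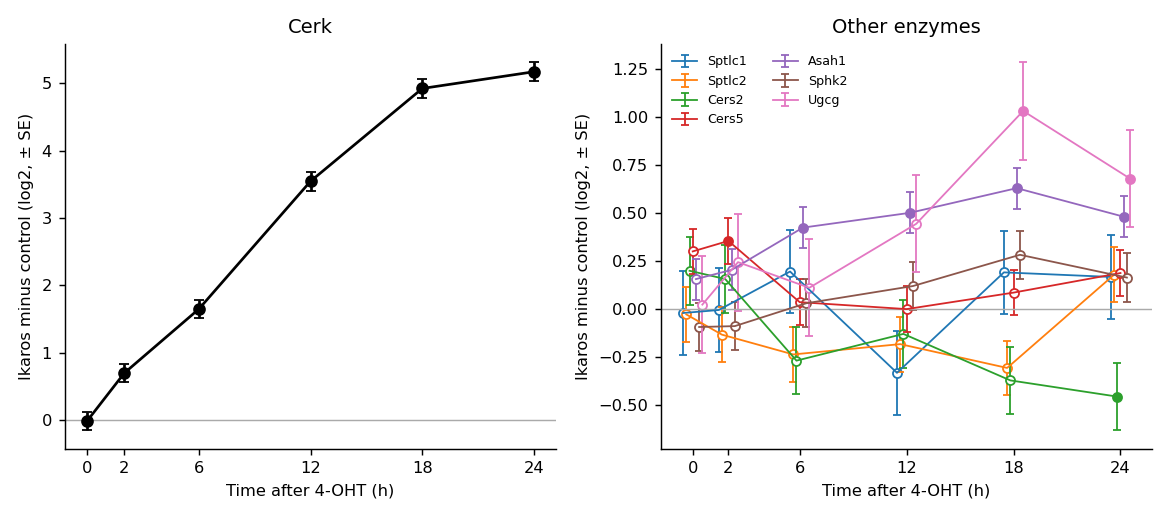
Ikaros minus control on the log2 scale (y, ± SE, 3 libraries per group) against hours after 4-OHT (x) for Cerk and for the other 7 enzymes, on different y ranges; in the panel of the other enzymes filled points are called at an adjusted p under 0.05, and Cerk was not tested. Cerk climbed to 5.17, while the others stayed between -0.46 and 1.03.

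Sptlc1 and Sptlc2 encode paired subunits of serine palmitoyltransferase, which makes the sphingoid base. Neither was called at any of the 6 times. The Sptlc1 difference was 0.17 at 24 h, with a 95% confidence interval from -0.28 to 0.62, and its largest size was -0.33 at 12 h (-0.78 to 0.12), where the Ikaros libraries spread from 11.00 to 11.95. Sptlc2 was 0.18 at 24 h, with an interval from -0.11 to 0.47. At 18 h the Sptlc2 libraries read 12.53, 12.48 and 12.55 in Ikaros cells and 12.62, 12.76 and 13.09 in control cells. These did not overlap, yet the difference of -0.31 (SE 0.14) had an adjusted p of 0.0683, and of 0.0139 with culture batch as a block. At 6 h it was -0.24 (adjusted p = 0.201), and -0.37 without replicate 3 (adjusted p = 0.0227). At 24 h the same gene lay the other way round, with every Ikaros library above the control libraries. Sptlc1 lies on chromosome 13 (53332748 to 53377397, reverse strand) and Sptlc2 on chromosome 12 (87305058 to 87388355, reverse strand).

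Cers2 and Cers5 encode ceramide synthases, Cers2 with a preference for very long fatty acids and Cers5 for palmitate. On the length- and GC-adjusted scale the mean of Cers2 over all 36 libraries was the highest of the set, at percentile 84.1 of all genes, although in Ikaros cells the mean of Cerk was above it from 12 h. At 24 h it was lower in Ikaros cells, which read 13.37, 13.41 and 13.51, than in control cells, which read 13.84, 14.14 and 13.69. The groups did not overlap, and the fall was 0.46 on the log2 scale (SE 0.18, 0.729-fold, adjusted p = 0.0266). Within batches 1, 3 and 4 the 24 h differences were -0.46, -0.72 and -0.18. The difference did not pass the test without replicate 1 (-0.45, adjusted p = 0.102) or without replicate 2 (-0.32, adjusted p = 0.307).

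At 0 h Cers2 lay on the other side, with Ikaros libraries at 13.98, 14.23 and 14.35 and control libraries at 13.94, 13.98 and 14.03, which overlapped. The difference there was 0.20 (SE 0.18, adjusted p = 0.620). At 2 h the Ikaros values were 14.20, 13.99 and 13.49 and the control values 13.64, 13.99 and 13.57, at 6 h they were 13.91, 13.51 and 13.48 against 13.91, 14.02 and 13.77, and at 12 h 13.58, 13.90 and 13.66 against 13.99, 13.83 and 13.70. All of these overlapped. At 18 h the Ikaros libraries were tight, at 13.57, 13.57 and 13.55, and the control libraries were not, at 14.22, 14.12 and 13.47. The difference of -0.37 there had an adjusted p of 0.0730, and of 0.0337 with culture batch as a block. Without replicate 3 the 18 h difference was -0.60 (adjusted p = 0.00509).

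Cers2 lies on chromosome 3 (95314791 to 95323599, forward strand). Its exons overlap the spans, introns included, of Setdb1 and 6330562C20Rik on the opposite strand. Whether exons of those genes are shared was not examined. The libraries were stranded, but whether the counting used the strand is not given in the sources used here, so reads of these genes may not be fully separate. At 24 h Setdb1, a histone methyltransferase gene, was lower by -0.81 (SE 0.10, adjusted p = 5.2e-08) and 6330562C20Rik by -0.79 (SE 0.33, adjusted p = 0.0417), so both moved in the direction of Cers2. Their part in the Cers2 value was not tested.

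Cers5 was called only at 2 h, where the Ikaros libraries read 12.90, 13.05 and 13.17 and the control libraries 12.78, 12.59 and 12.69. The difference was 0.36 (SE 0.12, 1.28-fold, adjusted p = 0.0351). It missed the threshold without each replicate in turn (0.29 to 0.48, adjusted p from 0.0849 to 0.331). At 0 h the 3 Ikaros libraries were already above the 3 control libraries, by 0.30 (adjusted p = 0.135), while at 12 h the difference was 0.00 with an interval from -0.24 to 0.24. At 24 h it was 0.19 (-0.05 to 0.43). Cers5 lies on chromosome 15 (99734881 to 99772885, reverse strand); its antisense partner Gm17058 had no row.

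Asah1 encodes acid ceramidase, the lysosomal enzyme that cleaves ceramide to sphingosine, and lies on chromosome 8 (41340197 to 41374773, reverse strand). It was the other enzyme that differed over most of the course, higher in Ikaros cells from 6 h. At 0 h its Ikaros libraries read 12.24, 12.14 and 11.94 and its control libraries 11.99, 11.98 and 11.87, which overlapped. At 2 h they read 12.11, 12.13 and 12.04 against 12.00, 11.90 and 11.76, and from this time on no control library reached an Ikaros library of the same time. At 6 h the values were 12.32, 12.37 and 11.96 against 11.68, 11.83 and 11.85, and at 12 h 12.48, 12.60 and 12.33 against 12.08, 12.02 and 11.80. At 18 h they were 12.57, 12.60 and 12.36 against 11.80, 11.95 and 11.89. At 24 h Ikaros cells read 12.65, 12.78 and 12.77 and control cells 12.33, 12.13 and 12.30. The control libraries of 24 h were the highest of that line.

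The Asah1 difference was 0.20 at 2 h (SE 0.11, adjusted p = 0.199), 0.42 at 6 h (adjusted p = 0.00261), 0.50 at 12 h (adjusted p = 0.000346), 0.63 at 18 h (adjusted p = 1.31e-05) and 0.48 at 24 h (adjusted p = 0.000313), which is 1.40-fold at 24 h. All 3 batches had a positive difference at every time. The call at 6 h was lost without replicate 1 (0.32, adjusted p = 0.150), without replicate 2 (0.37, adjusted p = 0.115) and in a fit of the compared groups alone (adjusted p = 0.123), and that at 24 h without replicate 2 (0.40, adjusted p = 0.0515).

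Sphk2 encodes a sphingosine kinase found in the nucleus and mitochondria among other places. It was called at no time. The largest difference was 0.28 at 18 h (SE 0.13, adjusted p = 0.0560), where the Ikaros libraries read 13.19, 12.99 and 12.80 and the control libraries 12.86, 12.62 and 12.65, which overlapped. With culture batch as a block its adjusted p was 0.00346, and without replicate 3 it was 0.0364 (0.35). At 24 h the Ikaros libraries, at 13.09, 12.97 and 12.93, were all above the control libraries, at 12.92, 12.80 and 12.78, and the difference was 0.16 with an interval from -0.09 to 0.42. Sphk2 lies on chromosome 7 (45709467 to 45718002, reverse strand). Its exons overlap the spans, introns included, of Dbp and Rpl18 on the opposite strand. At 18 h Dbp, a circadian transcription factor gene, was higher by 0.90 (adjusted p = 7.03e-06) and Rpl18, a ribosomal protein gene, lower by -0.57 (adjusted p = 0.00649); their part in the Sphk2 value was not tested.

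Ugcg encodes ceramide glucosyltransferase, which takes ceramide into glycosphingolipids, and lies on chromosome 4 (59189257 to 59222833, forward strand). It had the largest difference of the set after Cerk, and this came late. At 18 h the Ikaros libraries read 12.58, 12.61 and 12.79 and the control libraries 11.90, 11.55 and 11.44. At 24 h they read 12.67, 12.66 and 12.94 against 12.10, 12.06 and 12.07. The groups were apart at both times, and the differences were 1.03 at 18 h (SE 0.25, 2.05-fold, adjusted p = 0.00102) and 0.68 at 24 h (SE 0.25, 1.60-fold, adjusted p = 0.0217).

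Before 18 h the Ugcg groups overlapped at each time. At 0 h the Ikaros libraries read 12.19, 11.74 and 12.17 against 12.05, 11.83 and 12.15, at 2 h 12.04, 12.13 and 11.53 against 11.93, 11.92 and 11.11, and at 6 h 12.35, 12.14 and 11.23 against 12.17, 11.80 and 11.41. The libraries of replicate 3 were the lowest of both lines at 2 and 6 h. At 12 h the values were 11.96, 12.42 and 12.76 in Ikaros cells and 12.16, 11.88 and 11.78 in control cells, a difference of 0.44 with an interval from -0.08 to 0.96. The 24 h call was lost without replicate 1 (0.74, adjusted p = 0.0613) and without replicate 2 (0.72, adjusted p = 0.133), while the call at 18 h held in all alternatives tried.

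**Figure D3:**
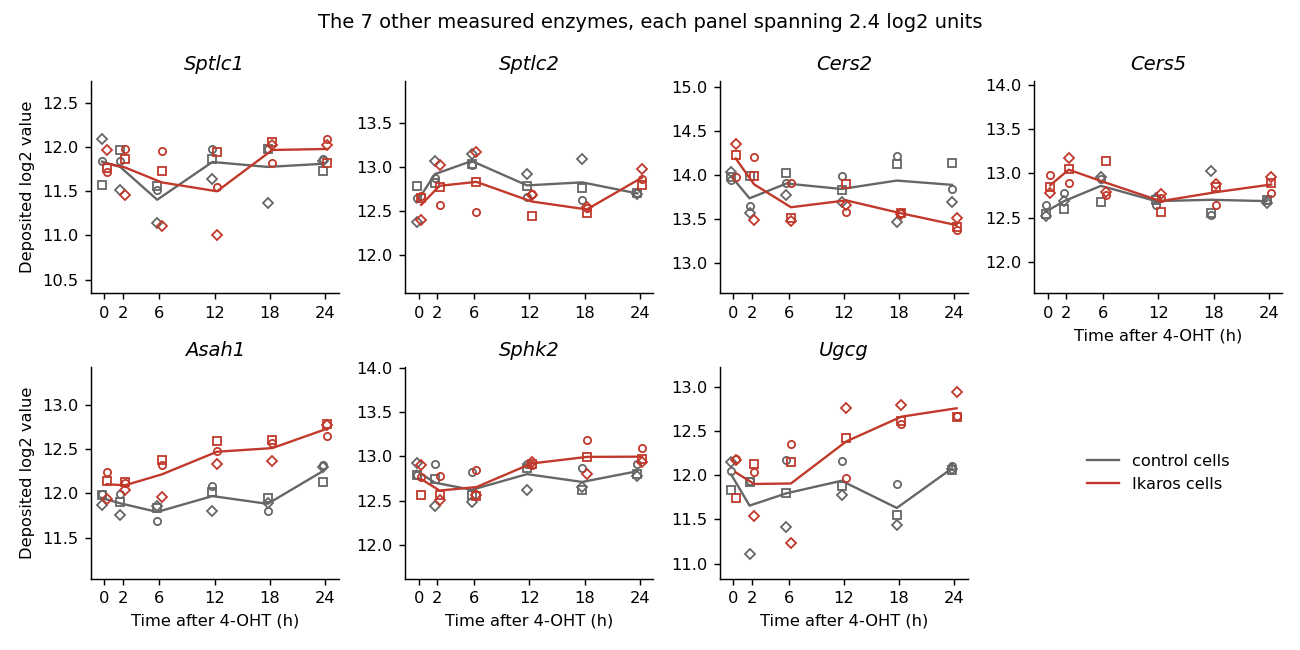
Deposited log2 values (y, panels of equal span) against hours after 4-OHT (x) of the 7 other enzymes, with open symbols for the 36 libraries (circle, square and diamond for replicates 1, 2 and 3) and lines through the group means of 3. Ikaros libraries lay wholly above control libraries for Asah1 from 2 h, Ugcg at 18 and 24 h, Cers5 at 0, 2 and 24 h, and Sptlc2 and Sphk2 at 24 h, and wholly below them for Sptlc2 at 18 h and Cers2 at 24 h.

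The time courses within each line were tested over 2 to 24 h, which leaves out the separately collected 0 h cultures. In Ikaros cells 3 of the 7 enzymes passed the F test, where 67.6% of all genes did. They were Asah1 (adjusted p = 5.96e-05), Ugcg (adjusted p = 0.00662) and Sphk2 (adjusted p = 0.0125). With culture batch as a block it was 5 of 7, Sptlc1 and Sptlc2 being added, where 9453 of the 12762 genes passed. Without replicate 2 only Asah1 passed (adjusted p = 0.0872 for Ugcg and 0.329 for Sphk2), where 5741 genes passed. Without replicate 3 Cers2 passed as well (adjusted p = 0.0163), where 8184 genes passed. In control cells 0 of the 7 passed, where 0.979% of all genes did. With the block Asah1 passed (adjusted p = 0.0296), where 633 genes passed. From 2 to 24 h the mean of Asah1 in Ikaros cells moved by 0.64, that of Ugcg by 0.86 and that of Sphk2 by 0.38. The corresponding moves in control cells were 0.36, 0.42 and 0.13.

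The change of the Ikaros-control difference itself was tested as well. From 2 to 24 h it passed for 1 of the 7, Cers2 (-0.61, SE 0.25, adjusted p = 0.0448), where 47.3% of all genes passed. The Cers2 change missed the threshold without replicate 1 (-0.41, adjusted p = 0.343), without replicate 2 (-0.56, adjusted p = 0.259) and in a fit of the compared groups alone (adjusted p = 0.0938). From 0 to 24 h it also passed for 1 of the 7, again Cers2, where 48.4% of all genes passed. The F test over the 5 changes from 0 h, which share the 0 h libraries, passed for 0 of the 7, where 59.8% of all genes passed; Asah1 had an adjusted p of 0.0503. With culture batch as a block it passed for Asah1 (adjusted p = 0.0198), Sphk2 (0.0268) and Cers2 (0.0314), where 8726 genes passed. Without replicate 3 it passed for Asah1 (adjusted p = 0.0107) and Cers2 (0.0147), where 7616 genes passed.

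The other genes of sphingolipid metabolism and signalling were taken from a list of 71 genes in 11 roles, written with earlier results of these data known. Of these 48 had a row, and 40 of them were not in the set described above. At 24 h 29 of the 40 were called, 18 higher and 11 lower, beside 62.9% of all genes, 31% higher and 31.9% lower. Of the 40 genes, 9 were higher and 1 lower at 0 h (4.61% and 3.72% of all genes), 10 and 4 at 2 h (9.18% and 9.88%), 14 and 9 at 6 h (18.1% and 19.2%), 18 and 7 at 12 h (23% and 22.8%) and 20 and 6 at 18 h (29% and 29.2%). Without replicate 1 the calls in both directions fell to 3 at 0 h and 6 at 2 h, where 432 and 962 of all genes were called. Without replicate 2 they fell to 2 at 0 h, 4 at 2 h and 15 at 6 h, where 318, 804 and 2706 of all genes were called. Which genes kept their 0 h call in these fits is not reported here. The 0 h calls named below are from the fit with all replicates and carry this limit. The median difference of the 40 genes was 0.08, 0.07, 0.26, 0.28, 0.34 and 0.30 at the 6 times in order. At 24 h 14 of the 40 were called with an absolute difference of at least 1, as were 32.7% of all genes.

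Of the 9 measured genes listed under lysosomal breakdown, 7 were called higher and 1 lower at 24 h, beside 31% and 31.9% of all genes. The 7 include Gba2 (0.34, SE 0.14), which encodes a glucosylceramidase outside the lysosome. Gm2a, the activator protein for ganglioside breakdown, was higher by 2.95 (SE 0.21). Psap, the precursor of the saposins that help lysosomal hydrolases reach their lipids, was higher by 1.89 (SE 0.08), with means of 14.77 and 16.65. Neu1, a lysosomal sialidase, was higher by 1.68 (SE 0.15) and Arsa, which removes sulfate from sulfatide, by 1.47 (SE 0.12). Glb1, the lysosomal beta-galactosidase, was lower by -0.39 (SE 0.16, adjusted p = 0.0418). Gm2a and Psap were already higher at 0 h, by 0.96 (adjusted p = 0.00268) and 0.28 (adjusted p = 0.0287).

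In the sphingomyelin cycle 3 of 7 genes were called higher and 2 lower at 24 h, which is near the shares of all genes, 31% and 31.9%. Smpd1, acid sphingomyelinase, was higher by 3.17 (SE 0.32) and Sgms1, a sphingomyelin synthase, by 1.64 (SE 0.19). Smpd4, a neutral sphingomyelinase, was lower by -1.40 (SE 0.09) and Smpdl3b, a phosphodiesterase of the same family, by -2.33 (SE 0.33). Smpdl3b was higher at 0 h, by 1.10 (adjusted p = 0.0338). Among the genes of glycosphingolipid synthesis other than Ugcg, 2 of 3 were lower, beside 31.9% of all genes, among them St3gal5, the GM3 synthase, by -2.19 (SE 0.20). St3gal5 was 1.01 higher at 0 h (adjusted p = 0.00127).

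Of the ceramidases other than Asah1, Acer3 was higher by 0.89 (SE 0.16) and Acer2 lower by -2.24 (SE 0.30), the latter with a mean of 6.20 in Ikaros cells, and Asah2 was not called. In sphingoid base synthesis 0 of the 5 other genes were called higher and 2 lower at 24 h, beside 31% and 31.9% of all genes, among them Ormdl2, an inhibitor of serine palmitoyltransferase, by -0.78 (SE 0.12). At 18 h 2 of these 5, Ormdl3 and Kdsr, were called higher and 1 lower, beside 29% and 29.2% of all genes. By the same limma fit Ormdl3 was lower by -0.32 at 12 h (adjusted p = 0.0444). Kdsr was lower by -0.49 at 2 h (adjusted p = 0.00677) and higher by 0.34 at 12 h (adjusted p = 0.0284). Neither Ormdl3 nor Kdsr was called at 24 h. Cers4, another ceramide synthase, was higher by 0.61 (SE 0.13), and Degs1, the desaturase of the last step, was higher from 2 to 18 h, by 0.79, 0.88, 0.60 and 0.26 in order (adjusted p from 3.98e-07 to 0.0390) but not called at 24 h. These genes at 24 h are shown in the plot by role.

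Among the genes that act on sphingosine 1-phosphate, Sgpp1, a phosphatase, was higher by 0.89 (SE 0.22) at 24 h and by 1.46 at 0 h (adjusted p = 4.4e-05). Sgpl1, the lyase that degrades it, was higher by 0.51 (SE 0.14) at 24 h and by 0.63 at 0 h (adjusted p = 0.00353), and lower by -0.39 at 6 h (adjusted p = 0.0308). Both were therefore called at 0 h in the fit with all replicates. Spns2, an exporter, was higher by 2.06 (SE 0.37), from a mean of 4.84 in control cells, and Mfsd2b, another exporter, was lower by -1.24 (SE 0.34).

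The receptors of sphingosine 1-phosphate differed among themselves. S1pr4, the receptor of blood cells, was higher by 1.77 (SE 0.13) at 24 h and by 0.43 at 0 h (adjusted p = 0.0285). S1pr1, the receptor that guides lymphocyte egress, was lower by -1.17 at 0 h (adjusted p = 0.00120) and by -1.17 at 2 h (adjusted p = 0.000693), and higher by 1.54 at 18 h (adjusted p = 3.04e-06) and 0.81 at 24 h (adjusted p = 0.00407). S1pr2 was -0.19 at 24 h and not called (adjusted p = 0.554). Sgpp2, S1pr3 and S1pr5 were not analysed here.

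Genes for proteins that bind or carry the lipids around Cerk differed in direction. Col4a3bp, the ceramide transfer protein, was lower by -0.59 at 2 h (adjusted p = 0.00328) and higher by 0.70 (SE 0.14) at 24 h, and Gltpd1, the transfer protein of ceramide 1-phosphate, was lower by -0.60 (SE 0.20, adjusted p = 0.00920). Pla2g4a, the cytosolic phospholipase that ceramide 1-phosphate binds, was lower by -0.57 (SE 0.18, adjusted p = 0.00742) and had been 0.75 higher at 0 h (adjusted p = 0.00682). Without replicate 2 the 24 h calls of Sgpl1, S1pr1, Gltpd1 and Pla2g4a were lost (adjusted p = 0.105, 0.0647, 0.166 and 0.172), and without replicate 1 that of Gltpd1 (0.0676).

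**Figure D4:**
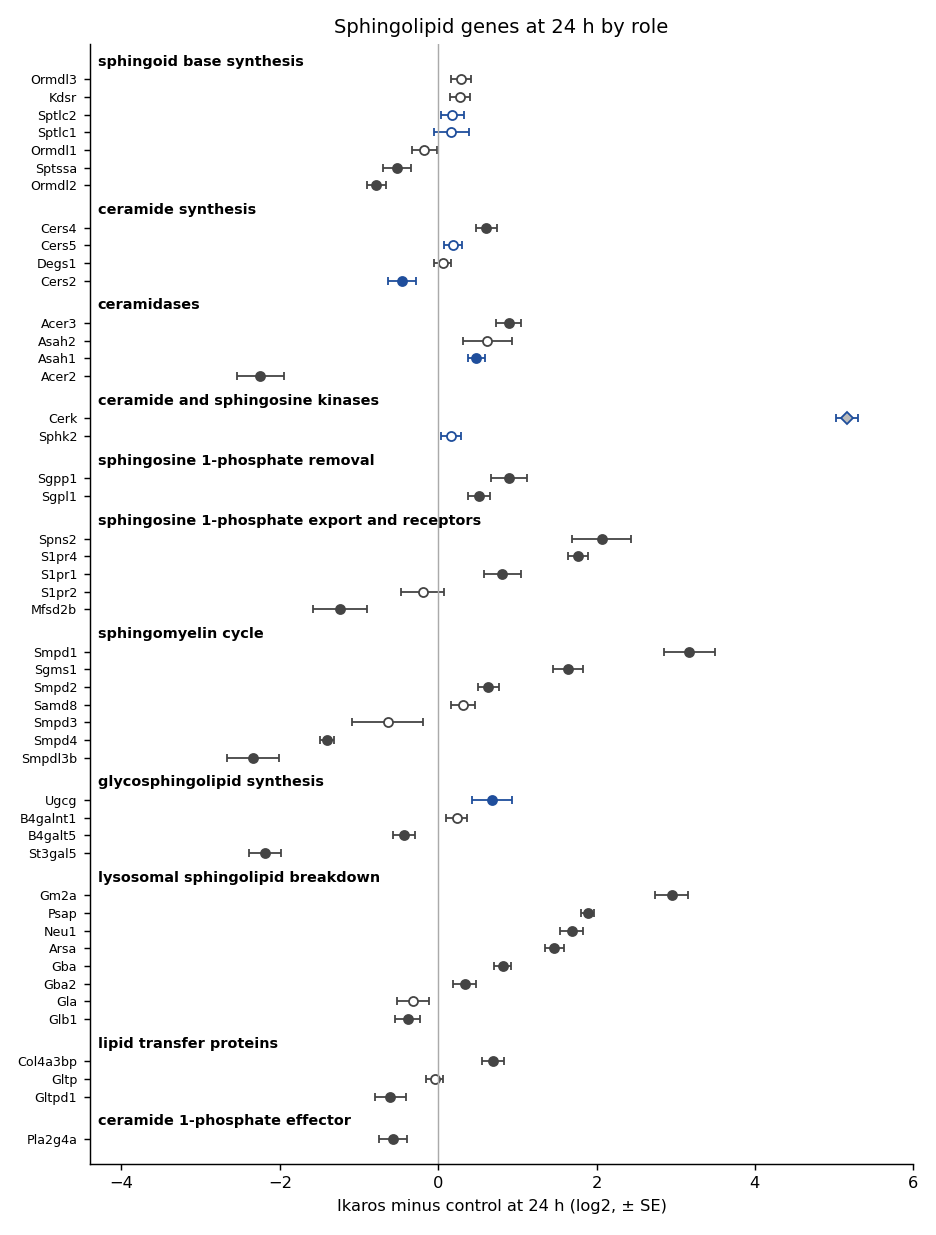
Ikaros minus control at 24 h on the log2 scale (x, ± SE, 3 libraries per group) for sphingolipid genes by role (y), with the 8 enzymes described above in blue. Filled circles are called at an adjusted p under 0.05 by limma, open circles are not, and the diamond is Cerk, which was not tested; Cerk lies at 5.17, and the genes nearest to it are Smpd1 at 3.17 and Gm2a at 2.95.

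The genes whose values over the 36 libraries were most like those of Cerk were Rhoh, a GTP-binding protein of blood cells (Pearson r = 0.988), Klc4 (0.987), Rab43 (0.987), Tulp4 (0.987) and Acbd5 (0.987). The most opposite were Aen (-0.990), Grwd1 (-0.989), Tac4 (-0.988), Atad3a (-0.987) and Timm9 (-0.987). These libraries share their line, time and culture batch, so r is a description and carries no p. Within the 18 control libraries, where Cerk varied little, the r with Cerk was 0.90 for Rab43, 0.82 for Tulp4, 0.54 for Klc4, 0.19 for Rhoh and -0.02 for Acbd5. By 24 h the 5 most like genes had differences from 2.28 to 3.54, all smaller than that of Cerk.

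Among the other enzymes of the set, Asah1 had the highest r with Cerk over the 36 libraries, at 0.86, followed by Ugcg at 0.75 and Sphk2 at 0.57. Sptlc1 (0.19), Cers5 (0.14) and Sptlc2 (-0.23) lay near 0, and Cers2 was at -0.57. For none of the 8 enzymes was the most similar gene another enzyme of the set.

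**Figure D5:**
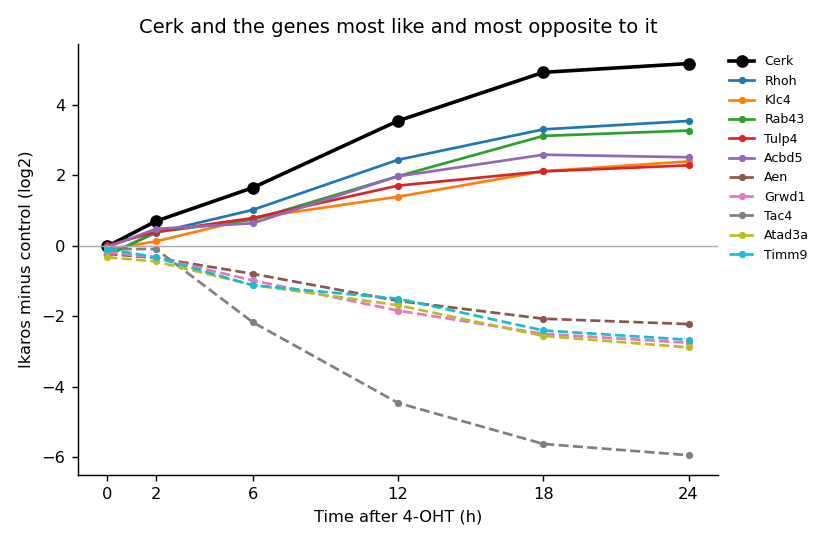
Ikaros minus control on the log2 scale (y, difference of means of 3) against hours after 4-OHT (x) for Cerk (black), the 5 genes most like it (solid lines) and the 5 most opposite to it (dashed lines) by Pearson r over 36 libraries. At 0 h the differences of the 10 genes ran from -0.33 (Atad3a) to 0.01 (Tulp4). Later they part in the direction of their r, which follows from how they were picked, with Tac4 at -5.94 and Rhoh at 3.54 at 24 h.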

How the data were processed

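The authors mapped the mRNA-seq fragments to mm10 with TopHat2, keeping a unique best position, trimmed primers and low-quality bases, and assigned fragments to genes with HTSeq in intersection mode; versions are not given in the sources used here. They corrected the counts for gene length and GC content by cqn and applied non-parametric ComBat for library preparation. The deposited values are taken as log2 values, since cqn returns log2, and the lowest of them is 1. The base of the log is not written with the values. Read depth per library is unknown, and the group fits take the ComBat-corrected values as if nothing had been estimated from them.

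Differences were fitted with limma (version 3.58.1, R 4.3.3) on all 36 libraries with 12 group means. Two-sided p-values were adjusted over 12762 genes by the Benjamini-Hochberg method, and genes were called at an adjusted p under 0.05. The fit was tested on simulated data. No gene was filtered. The members and lists were chosen with earlier results of these data known. Genes named beyond the set were those of the sphingolipid list called at 24 h with an absolute log2 difference of at least 1, a fixed set of handling genes, and the 5 most and 5 least correlated with Cerk. Asah2, Acer3, Cers4, Degs1, Ormdl2, Ormdl3, Kdsr, Gba2 and Glb1 were named after their values were seen, and the overlapping genes for their position. Values of some listed genes are not reported here. Replicate numbers mark culture batches shared by the lines: deviations of the 18 same-batch pairs from their group means had correlations from -0.06 to 0.51 (median 0.13), and 12 were above 0.1. The largest share of identical values between any pair of libraries was 0.384%. Positions are from GENCODE (GRCm38), to which 98.7% of identifiers matched. Alternatives were the culture batch as a block, with the 0 h cultures as blocks of their own, a filter at the 25th percentile of mean level, quantile normalisation, limma's trend and robust options, only the compared groups, and each replicate left out.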

Additional observations from a re-analysis of the deposited data

Results flagged for a closer look

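The change of the Cers2 difference from 0 to 24 h was tested directly and passed: Ikaros minus control moved by -0.66 on the log2 scale (SE 0.25, adjusted p = 0.0312, limma over all genes), from 0.20 at 0 h to -0.46 at 24 h. In the Ikaros line the Cers2 mean moved by -0.75 between these times and in the control line by -0.10. The test of this change passed for 48.4% of all genes. The F test over the changes from 0 h to the later times did not pass for Cers2 (adjusted p = 0.0948). It passed with culture batch as a block (adjusted p = 0.0314) and without replicate 3 (0.0147). The 24 h difference lost its call without replicate 1 (adjusted p = 0.102) and without replicate 2 (0.307), but not without replicate 3. No alternative fit of the change from 0 to 24 h is reported here. The 0 h cultures were collected separately from the later ones, and the overlapping opposite-strand genes Setdb1 and 6330562C20Rik were also lower at 24 h; their part in the change was not tested.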

How the results depend on the processing

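The depth of the libraries is unknown, 3 libraries per group estimate the spread poorly, and differences near 0.5 often moved across the threshold. Quantile normalisation and limma's trend and robust options kept the calls of the 7 enzymes in all 6 comparisons between the lines. The alternatives for the wider list were added after seeing the data. In the fit with the replicate block, which is the culture batch, the number of the 7 enzymes called became 5 at 18 h, 3 in the F test over the changes from 0 h, 5 in the F test in Ikaros cells and 1 in the F test in control cells. Of all genes 7998, 8726, 9453 and 633 were called in these, against 7423, 7626, 8626 and 125 with no block. The block changed no other call of an enzyme. A filter left out genes under the 25th percentile by mean level, so fewer genes were tested. With it 701 genes were called at 0 h (1063 with no filter) and 67 in the F test in control cells (125). The reason for these falls was not tested. The enzymes of the F test over the changes became 1 (Asah1), as with quantile normalisation (1). Sphk2 passed at 18 h in the filtered limma fit (adjusted p = 0.0482). With only the compared groups in the fit, the genes called numbered 860 at 2 h (2432 with all groups), 2150 at 6 h (4759 with all groups) and 2 in the F test in control cells; the enzymes called were 0 at 2 h, 0 at 6 h and 0 for the change from 2 to 24 h, and the wider list had 4 genes called at 2 h and 12 at 6 h. The F test over the changes uses all groups and has no such fit.

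Without replicate 1, 2 or 3 in turn, the genes called ranged from 318 to 1204 at 0 h, 804 to 2719 at 2 h, 2640 to 4971 at 6 h, 3769 to 5921 at 12 h, 5432 to 7482 at 18 h and 6248 to 8054 at 24 h. They ranged from 4064 to 7616 in the F test over the changes, 3775 to 6217 for the change from 2 to 24 h, 5741 to 8184 in the F test in Ikaros cells and 0 to 90 in that in control cells. The enzymes called ranged from 0 to 0 at 0 h and 2 h, 0 to 2 at 6 h, 1 to 1 at 12 h, 2 to 4 at 18 h and 0 to 3 at 24 h, and from 0 to 2, 0 to 1, 1 to 4 and 0 to 0 in those 4 tests. In the wider list 2 to 10, 4 to 14, 15 to 24, 17 to 26, 20 to 29 and 22 to 32 genes were called at the 6 times. Differences that changed sign in this way were not called with all replicates. Their ranges were -0.058 to 0.046 for Cerk, -0.12 to 0.033 for Sptlc1, -0.056 to 0.027 for Sptlc2 and -0.034 to 0.079 for Ugcg at 0 h, and -0.043 to 0.28 for Cers2 and -0.077 to 0.044 for Sptlc1 at 2 h. At 6 h they were -0.18 to 0.15 for Cers5 and -0.0059 to 0.26 for Ugcg, and at 12 h -0.22 to 0.012 for Cers2 and -0.038 to 0.065 for Cers5. At 18 h they were -0.017 to 0.20 for Cers5 and -0.043 to 0.37 for Sptlc1, and at 24 h -0.36 to 0.0031 for S1pr2. The cause was not tested.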
